A study of Mus musculus with 3 samples.

Results

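The genes described here are 29 genes of cholesterol synthesis, uptake and efflux, taken by their symbols from all genes (27998 of them) of a single-cell RNA table of the mouse aorta-gonad-mesonephros region (AGM). All 29 symbols were found. They comprise 7 genes of the early (mevalonate) steps of synthesis, 11 of the later sterol steps, 5 regulators, 3 intracellular transport genes, 2 efflux pumps and 1 esterification gene. The cells came from AGM regions of E10.5 mouse embryos, with between 28 and 32 somite pairs, dissected and pooled before sorting. No strain, mutation or treatment is named in the labels. 3 populations were sorted, with 1 sample each, and each was run over 2 lanes as technical replicates of 10x Genomics droplet sequencing. The niche sample was live cells without the red-cell antigen Ter119. The endothelial sample was Ter119-, CD31+, VCad+ and cKit+ cells without CD41. The T1-preHSC sample, a surface-antigen gate for early precursors of blood stem cells, was Ter119-, CD31+, VCad+ and cKit+ cells with low CD41. All 3 populations were deposited as 1 table in which barcodes carry suffixes from 1 to 8, and no label ties a suffix to a sort. The 8 suffixes are more than 2 lanes for each of 3 populations would give, and what a suffix stands for is not stated. The contrasts below are therefore between classes of cells gated on marker genes, and the suffixes serve to check whether a direction recurs.

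Cholesterol is built from acetyl-CoA through mevalonate and the isoprenoid farnesyl diphosphate to squalene, which is closed into lanosterol and then trimmed to cholesterol. When sterol in the endoplasmic reticulum is low, SCAP escorts the transcription factors SREBP1 and SREBP2 (genes Srebf1 and Srebf2) to the Golgi for activation, and the INSIG proteins hold SCAP back when sterol is plentiful. Cholesterol taken up from outside leaves the lysosome through NPC2 and NPC1, surplus is exported by ABCA1 and ABCG1 or stored as esters made by SOAT1, and dividing embryonic cells need sterol for new membrane.

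Promoter sequence was matched by symbol in RefSeq (GRCm38.p6) for 23 of the 29 genes. In the 250 bases before the start, searched on both strands, the CCAAT box (CCAAT, the site of NF-Y, a factor known to act with SREBP) was found in 20 of the 23 and in 37.5% of all 27025 genes with a promoter. Among the 15 matched synthesis enzymes it was found in 14. Members without it were Abca1, Acat2 and Scap. The GC box GGGCGG was found in 21 of the 23 members and in 35.4% of all genes. The E-box CACGTG was found in 6 of the 23 and in 6.86% of all genes. The longer letters TCACNCCAC, the core of the classical sterol regulatory element, were found in 1 of the 23, Hmgcs1, and in 1.22% of all genes. None of these 4 motifs contains another, and a match describes letters only, not a bound site. The last 150 bases before the start are printed for 3 enzymes and 1 efflux pump whose levels are compared in the blood precursors below. Each is 5′ to 3′ on the gene's own strand, and capitals mark CCAAT (or ATTGG on the opposite strand) and TCACNCCAC.

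Hmgcs1, chr13:119690201-119690350, plus strand: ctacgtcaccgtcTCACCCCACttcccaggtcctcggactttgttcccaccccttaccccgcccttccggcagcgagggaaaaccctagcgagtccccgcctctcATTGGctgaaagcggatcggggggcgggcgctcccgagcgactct
Mvd, chr8:122443423-122443572, minus strand: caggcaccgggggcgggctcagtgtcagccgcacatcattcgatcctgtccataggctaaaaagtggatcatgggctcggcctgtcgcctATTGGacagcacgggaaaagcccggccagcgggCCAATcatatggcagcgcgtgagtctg
Sc5d, chr9:42264301-42264450, minus strand: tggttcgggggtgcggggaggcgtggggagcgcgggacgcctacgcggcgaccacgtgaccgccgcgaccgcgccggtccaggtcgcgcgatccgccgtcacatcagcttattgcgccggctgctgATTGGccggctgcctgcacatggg
Abca1, chr4:53159896-53160045, minus strand: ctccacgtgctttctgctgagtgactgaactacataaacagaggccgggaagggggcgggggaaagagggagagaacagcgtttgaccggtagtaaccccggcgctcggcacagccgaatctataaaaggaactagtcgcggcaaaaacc

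The Hmgcs1 stretch holds the sterol element 137 bases before the start and an inverted CCAAT box at 45 bases. Mvd has CCAAT letters in both orientations, at 60 and 27 bases, and Sc5d has a single inverted box at 24 bases. Abca1 has no CCAAT letters in the whole window, and its stretch holds a GC box at 97 bases and an E-box at 147. GC boxes also lie in the stretches of Hmgcs1 (24 and 92 bases) and Mvd (140 bases), and an E-box in that of Sc5d (98 bases).

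A level is given as CPM, the UMIs (unique molecular identifiers) of a gene summed over the cells of a class and scaled to the same total in each class. Levels are not divided by gene length, so they are compared between classes and not between genes. Intervals in parentheses are exact 95% Poisson intervals and cover counting error only. Each population is a single sample whose cells cannot be traced, so no p-value is given and every contrast is between classes within 1 pooled experiment. Mesenchyme serves in 4 of the contrasts below, endothelium in 3 and the pre-HSC-like cells in 2, so these contrasts share cells. Of 9492 barcodes, 8915 were kept, with between 97 and 1738 per suffix and medians between 6387 and 15632 UMIs. Suffixes 7 and 8 were the smallest and deepest. 108 barcodes shared their letters with a barcode of another suffix. Marker gating placed 5602 cells in a class and left 37.2% in none. Endothelium had 1981 cells, of which 955 and 906 carried suffixes 5 and 6 and 108 carried suffixes 1 to 4. Pre-HSC-like cells, defined as cells with blood markers and at least 1 UMI of Cdh5, numbered 167, in suffixes 3 to 8. Cells with blood markers and no Cdh5 numbered 115. The other classes were 53 macrophages, 61 megakaryocytes, 229 germ cells, 481 neural progenitors, 674 neurons, 163 neural crest cells, 731 sclerotome cells, 178 myotome and dermomyotome cells, 424 mesenchymal cells, 104 coelomic and gonadal cells, 109 nephric cells and 100 smooth muscle cells. A class of 19 epithelial cells was too small for these levels. Class names rest on markers: Cdh5 stood at 317 CPM in endothelium and at 0 in macrophages, C1qb at 1013 CPM in macrophages and Tubb3 at 2348 CPM in neurons. Foxf1, a mesenchymal marker, was at 12.7 CPM in the mesenchyme class, whereas Prrx1 was at 305 CPM. No label says which embryos a suffix holds, so a direction that recurs across suffixes cannot be said to recur in separate animals.

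The 18 synthesis enzymes were highest in neural, smooth muscle and myotomal cells and lowest in blood cells. Their summed level was 1471 CPM (1434 to 1510) in neural progenitors, 1399 CPM (1317 to 1485) in smooth muscle, 1372 CPM (1338 to 1405) in neurons and 1333 CPM (1279 to 1388) in myotome and dermomyotome. These 4 classes stood above sclerotome at 1058 CPM, nephric cells at 1040, coelomic and gonadal cells at 913, mesenchyme at 873, endothelium at 803 and neural crest at 725. Megakaryocytes had 637 CPM, germ cells 581 and macrophages 540. Pre-HSC-like cells had 407 CPM (381 to 434) and blood cells without Cdh5 had 380 CPM (349 to 413), and those intervals overlap. Smooth muscle overlapped with neural progenitors and neurons, so the order among the highest classes is not resolved. The smooth muscle class also carried markers of 2 other classes: the 9 myotome and dermomyotome markers summed to 1721 CPM in it (Myog 99.5 CPM) and the 12 mesenchymal markers to 395 CPM, with 62% of its cells in 1 cluster. The part of those cells in its enzyme level was not tested.

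**Figure D1:**
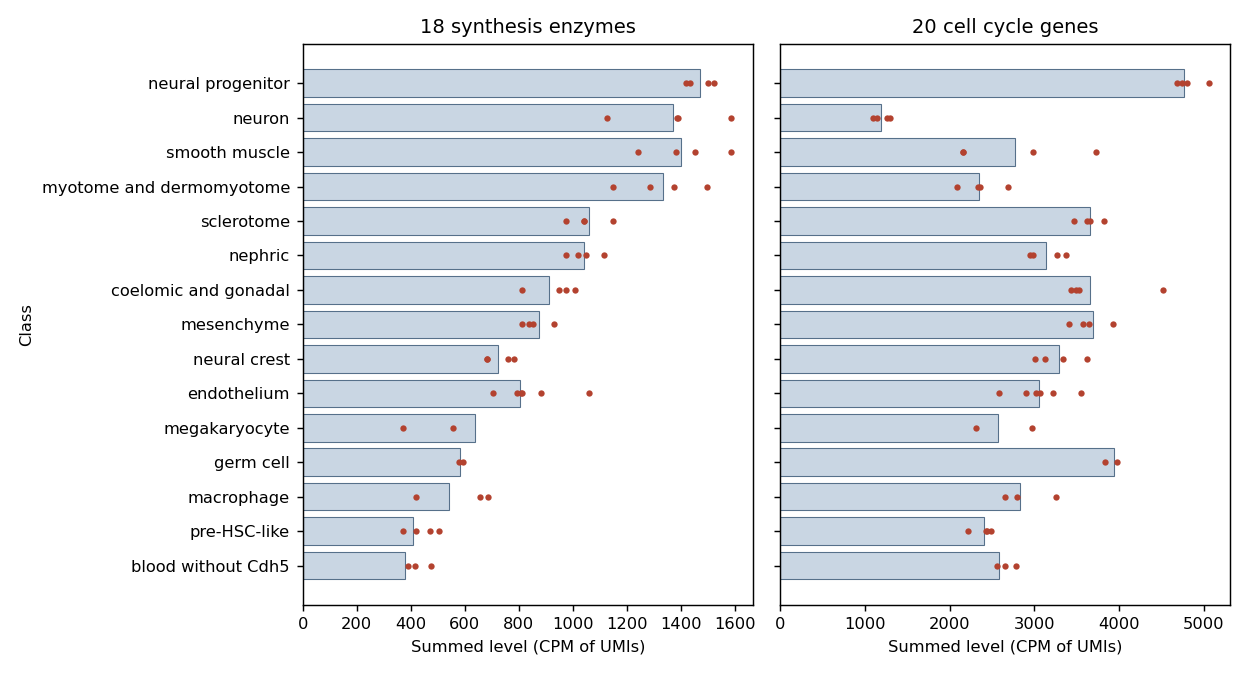
Summed levels (CPM of UMIs, horizontal axis) of the 18 synthesis enzymes (left) and 20 cell cycle genes (right) in 15 classes (vertical axis). Bars are all cells of a class and points are barcode suffixes with at least 10 cells of it; enzyme sums run from 1471 CPM in neural progenitors to 380 CPM in blood cells without Cdh5, while neurons combine a high enzyme sum with the lowest cell cycle sum of the 15, 1189 CPM.

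Most enzymes ranked the classes in a similar order. Over 15 classes, the Spearman correlation of an enzyme with the sum of the other 17 had a median of 0.86 and was 0.5 or more for 17 of the 18. Of all 8848 genes with at least 20 CPM in any of these classes, 28.9% had such a correlation with the summed enzymes, with a median of 0.18. These are descriptions over classes that share libraries and total counts, not tests. Hmgcs1, which makes HMG-CoA, had the highest value (0.97), followed by Msmo1 (0.97), a C4-demethylation enzyme, and Dhcr7 (0.96), the reductase whose loss causes Smith-Lemli-Opitz syndrome. Ebp, the sterol isomerase, was the exception at -0.22. Pre-HSC-like cells were among the 5 lowest classes for 17 of the 18 enzymes, and blood cells without Cdh5 likewise for 17. Over all 8848 genes, these 2 classes were among the 5 lowest for 39.2% and 44.5%. Neural progenitors, neurons and smooth muscle were each among the 5 highest classes for 16, and over all 8848 genes for 37.2%, 39.5% and 38.4%.

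**Figure D2:**
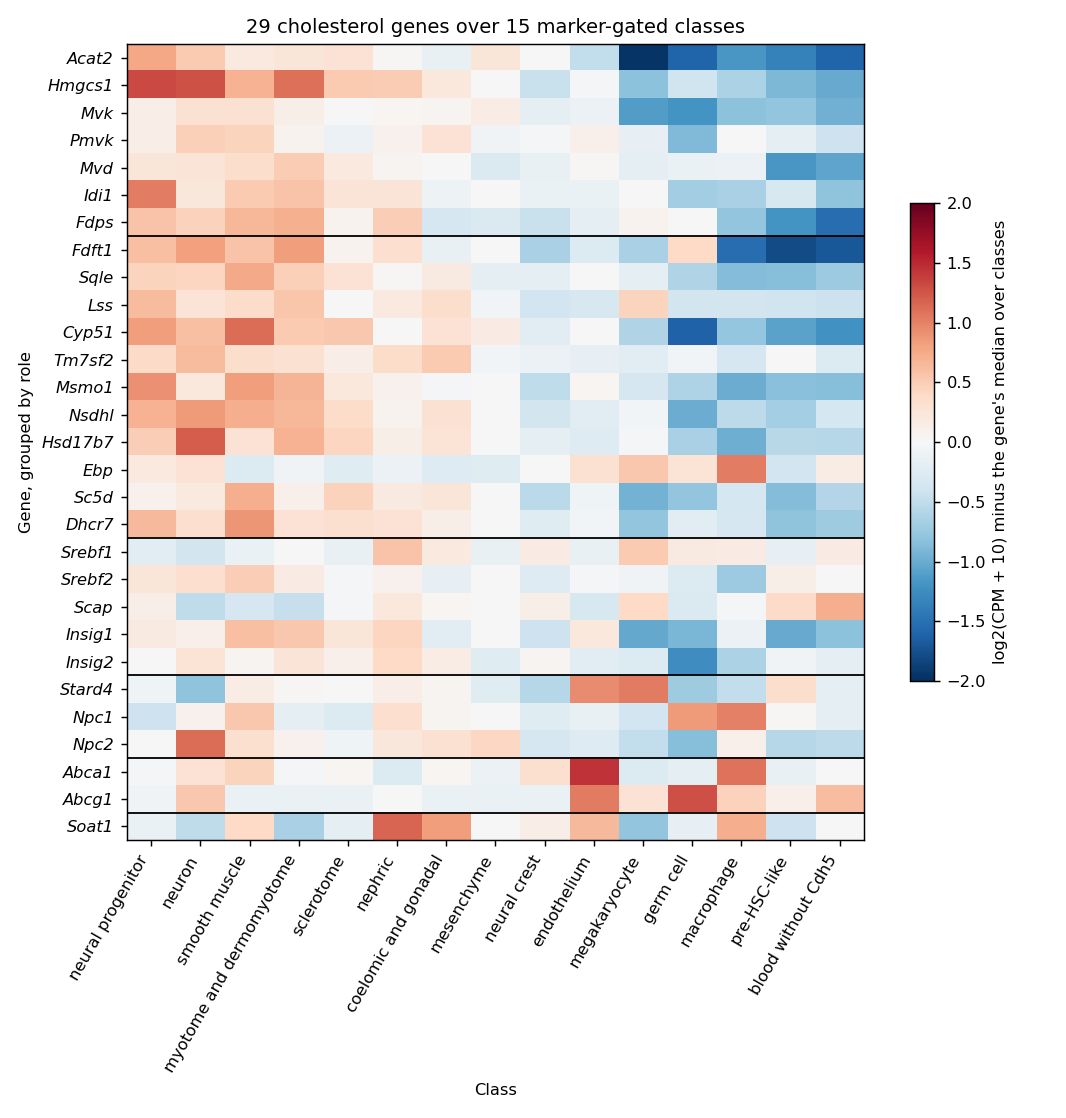
Levels of the 29 genes (rows, grouped by role) in 15 classes (columns), coloured by log2(CPM + 10) minus the gene's median over the classes. Enzyme rows are mostly red on the left (neural, smooth muscle, myotome) and blue on the right (macrophage and blood classes), and Ebp, Stard4, Npc1, Abca1, Abcg1 and Soat1 follow other patterns.

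Single early enzymes gave the scale of this range. Acat2, a cytosolic thiolase that joins acetyl-CoA units, ran from 28.6 CPM in megakaryocytes to 248 in neural progenitors. It lies beside Acat3, a closely similar gene, so reads could have been split between them. Hmgcs1 ran from 17.7 CPM in blood cells without Cdh5 to 130 in neural progenitors. Mvk, mevalonate kinase, ran from 13.6 CPM in germ cells to 57.0 in neurons. Pmvk, the next kinase, had the narrowest range of the early enzymes, from 32.9 CPM in germ cells to 99.8 in neurons, or 3.03 times. Mvd, the decarboxylase that makes isopentenyl diphosphate, ran from 12.6 CPM in pre-HSC-like cells to 61.8 in myotome and dermomyotome. Idi1, which isomerises that product, ran from 25.2 CPM in blood cells without Cdh5 to 115 in neural progenitors. Fdps, farnesyl diphosphate synthase, ran from 40.8 CPM in blood cells without Cdh5 to 229 in myotome and dermomyotome.

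Of the sterol enzymes, Fdft1, squalene synthase, ran 10.4 times from 12.6 CPM in pre-HSC-like cells to 131 in myotome and dermomyotome. Sqle, squalene epoxidase, ran from 31.1 CPM in macrophages to 118 in smooth muscle. Cyp51, the lanosterol demethylase, ran 11.3 times from 12.0 CPM in germ cells to 136 in smooth muscle. Lss, lanosterol synthase, ran from 6.12 CPM in blood cells without Cdh5 to 23.8 in neural progenitors. Tm7sf2, a sterol reductase, ran from 3.45 CPM in macrophages to 16.2 in neurons, and Hsd17b7, a ketosteroid reductase, from 1 UMI in macrophages (1.73 CPM) to 43.4 CPM in neurons. Nsdhl, a C4-decarboxylating dehydrogenase, ran from 4.70 CPM in germ cells to 43.0 in neurons. These less abundant transcripts had correlations with the other enzymes between 0.80 and 0.92. Msmo1 ran from 10.4 CPM in macrophages to 65.6 in neural progenitors, Sc5d, the lathosterol desaturase, from 6.87 in megakaryocytes to 43.9 in smooth muscle, and Dhcr7 from 14.8 in pre-HSC-like cells to 69.8 in smooth muscle. Ebp was at 77.7 CPM (56.7 to 104) in macrophages and 52.7 in megakaryocytes, at 23.0 in pre-HSC-like cells, and between 25.8 and 44.9 in the remaining classes and endothelial subsets. Cyp51 and Akap9, and Fdft1 and Ctsb, overlap on opposite strands, as do Mvd and Gm20388, and Tm7sf2 overlaps Vps51 and Fdps overlaps Gm43738 on the same strand, so those levels could include reads of the neighbour.

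The regulators did not all follow the enzymes. Srebf2, the main activator of the sterol genes, ran from 13.8 CPM in macrophages to 45.2 in smooth muscle, with a correlation of 0.65 with the summed enzymes. Srebf1, which mainly serves fatty acid genes, stayed between 4.04 CPM in neurons and 16.8 in nephric cells. Scap was highest in blood cells without Cdh5 (27.2 CPM) and lowest in neurons (5.75), the opposite of the enzymes. Insig1, itself a target of SREBP, followed the enzymes with a correlation of 0.78 and ran from 4.58 CPM in megakaryocytes to 34.9 in smooth muscle. Insig2 ran from 5.75 CPM in germ cells to 38.6 in nephric cells. Srebf1 overlaps Rai1 on the opposite strand.

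Pre-HSC-like cells had lower levels than arterial endothelium of genes from synthesis, feedback control and efflux, among them 7 of the 15 enzymes tested. A gene was called when log2((CPM + 10)/(CPM + 10)) was at least 1 in size, the higher class had at least 20 CPM, and the direction was the same in every suffix with at least 10 cells of both classes. Arterial endothelium was 99 endothelial cells with at least 2 arterial markers and at most 3 venous ones. Of these, 51 held only 2 arterial markers. The 8 arterial markers summed to 774 CPM in the class and the 8 venous ones to 404 CPM, with Aplnr at 162 CPM. Of 23 members at 20 CPM or more in either class, 10 were called lower and 0 higher, against 11.4% of all 6073 genes tested called lower and 4.94% higher. The 10 were Hmgcs1, Mvd, Fdps, Fdft1, Sqle, Msmo1, Sc5d, Insig1, Abca1 and Abcg1. The median log2 ratio of the 23 was -0.999 and that of all genes tested was -0.08. Suffixes 5 and 6 hold both classes, and the median over members was -0.70 and -0.81 there. The summed enzymes of pre-HSC-like cells were at 503, 472, 419 and 370 CPM in suffixes 5 to 8, all below arterial endothelium at 965 and 924 in suffixes 5 and 6.

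Of the early enzymes, Fdps was at 188 and 118 CPM in arterial cells of suffixes 5 and 6, and at 54.5, 66.4, 61.8 and 46.9 CPM in pre-HSC-like cells of suffixes 5 to 8. No suffix value of one class reached the other, and the log2 ratio was -1.30. Mvd was at 51.4 and 40.5 CPM in arterial cells and at 12.1, 0, 15.1 and 12.8 in pre-HSC-like cells, a log2 ratio of -1.25. Hmgcs1 was at 45.4 and 77.8 CPM in arterial cells and at 6.06, 22.1, 20.2 and 22.2 in pre-HSC-like cells, a log2 ratio of -1.23. Both genes were separate between the classes in suffixes 5 and 6, the only ones with at least 10 cells of both. Pre-HSC-like cells there numbered 22 and 19, with 1 and 3 UMIs of Hmgcs1 and 2 and 0 of Mvd. Suffixes 7 and 8 held 50 and 72 pre-HSC-like cells and 1 arterial cell each. Pooled ratios therefore mostly set precursors of suffixes 7 and 8 against arterial cells of suffixes 5 and 6. Among the sterol enzymes, Fdft1 was at 54.5 and 43.6 CPM in arterial cells and at 12.1, 14.8, 16.4 and 8.52 in pre-HSC-like cells, a log2 ratio of -1.39. Msmo1 was at 30.3 and 49.8 CPM against 6.06, 7.38, 8.83 and 15.3, a log2 ratio of -1.17. Sc5d was at 36.3 and 28.0 CPM against 12.1, 0, 6.31 and 8.52, a log2 ratio of -1.22. The suffix values of these 3 sterol enzymes also did not overlap between the classes. The share of all genes without such overlap was not counted, here or in the other contrasts between classes. Sqle was at 63.6 and 96.5 CPM in arterial cells and at 60.6, 7.38, 32.8 and 29.8 in pre-HSC-like cells, so its call (log2 ratio -1.22) rests on suffixes other than 5, where the log2 ratio was -0.06. Cyp51 had a log2 ratio of -1.10 (22.1 against 58.7 CPM) and was not called, since suffix 6 had 0.06.

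Insig1 fell with the enzymes. It was at 27.2 and 37.3 CPM in arterial cells and at 6.06, 0, 5.05 and 5.11 in pre-HSC-like cells of suffixes 5 to 8, a log2 ratio of -1.58. The pre-HSC-like values of suffixes 5 and 6 rest on 1 and 0 UMIs of Insig1. Srebf2 was at 32.5 CPM (25.6 to 40.8) in pre-HSC-like cells and 20.5 (11.5 to 33.8) in arterial cells, and these intervals overlap. Scap, untested for its low level, was at 19.1 and 2.73 CPM. Both efflux pumps were lower. Abca1 had 16 UMIs in arterial cells (15.1 and 28.0 CPM in suffixes 5 and 6) and 2 UMIs in all pre-HSC-like cells, 0 in suffixes 5, 6 and 8. The ratio of levels was 25.2 with a counting interval of 5.92 to 226. Abcg1 was at 27.2 and 24.9 CPM in arterial cells and at 6.06, 0, 0 and 2.56 in pre-HSC-like cells, a ratio of 13.4 (4.36 to 54.6). Transport and esterification had no call: Stard4, a sterol carrier protein, had a log2 ratio of -0.98 (36.0 against 80.6 CPM), and Soat1, which esterifies cholesterol, had -0.999 (13.5 against 36.9 CPM), just short of the limit.

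**Figure D3:**
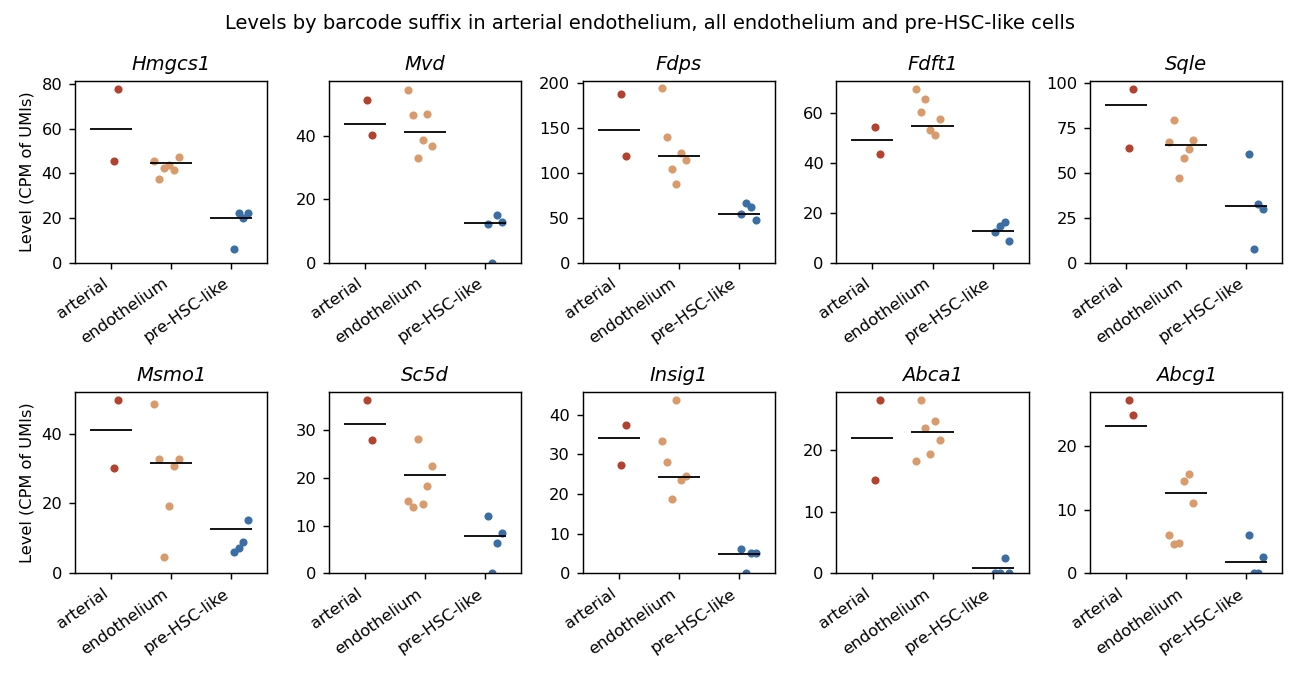
Levels (CPM of UMIs, vertical axis) of the 10 genes called lower in pre-HSC-like cells than in arterial endothelium. Points are barcode suffixes with at least 10 cells of a class and lines are all cells of it; only the suffix 5 point of Sqle (60.6 CPM) comes near the arterial points.

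For comparison, of the 7 fatty acid synthesis genes at 20 CPM or more, 0 were called and their median log2 ratio was 0.27. Of 20 cell cycle genes, 2 were called lower with a median of -0.36, and their summed level was 2408 CPM in pre-HSC-like and 3128 CPM in arterial cells. Of 5 trafficking genes tested, 1 was called: Lipa, the lysosomal acid lipase, was lower (17.8 against 56.0 CPM, log2 ratio -1.25). The cells compared also differed in what gated them: the 12 endothelial markers summed to 1417 CPM in pre-HSC-like and 6555 CPM in arterial cells, the 10 blood markers to 1074 and 106 CPM, and median depth was 13336 and 7123 UMIs. Markers of other types also differed: the neuron list summed to 36.0 and 187 CPM, mostly Stmn2 in arterial cells (186 CPM), and the smooth muscle list to 124 and 194 CPM. The part of these differences in the result was not tested.

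The same precursors were also set against all endothelium, a contrast added after the levels had been seen and sharing the pre-HSC-like cells with the previous one. Of 21 members tested, 6 were called lower and 0 higher, against 8.21% and 4.39% of all genes. The 6 were Mvd (log2 ratio -1.18), Fdps (-1.01), Fdft1 (-1.53), Insig1 (-1.22), Abca1 (-1.59) and Soat1 (-1.05). The call of Fdps held in 11 of 20 alternatives. Abca1 had 363 UMIs in endothelium and 2 in pre-HSC-like cells, a ratio of 26.3 (7.23 to 218). Soat1 was at 38.5 CPM in endothelium and at 18.2, 7.38, 16.4 and 11.9 CPM in pre-HSC-like cells of suffixes 5 to 8. Stard4 kept the largest ratio of the transport genes, at -0.59. Blood cells without Cdh5 gave similar levels to the precursors for most of these genes: 14.3 CPM for Mvd, 40.8 for Fdps, 14.3 for Fdft1 and 6.80 for Insig1. Abcg1 was at 6.80 CPM (3.26 to 12.5) there and at 1.74 (0.473 to 4.44) in pre-HSC-like cells.

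Within endothelium, no member was called between arterial and venous cells as gated, though the summed enzymes were somewhat higher in arterial cells. The arterial class also carried venous markers. Venous endothelium was 888 endothelial cells with at least 4 venous markers and no arterial one. Of 23 members tested, 0 were called in either direction, against 1.86% of all 5704 genes called higher in arterial cells and 0.596% called lower. Calls were this rare over all genes, so 0 of 23 does not set the members apart. With no replicate test there is no p-value beside this count. The median log2 ratio of the members was 0.32, that of all genes was 0.05, and the summed enzymes were at 937 CPM (868 to 1009) in arterial and 756 CPM (737 to 776) in venous cells. The largest member difference was in Abcg1, at 27.2 and 24.9 CPM in arterial and 9.59 and 7.01 CPM in venous cells of suffixes 5 and 6, a log2 ratio of 0.88. The largest ratios of the other role groups were 0.41 for Fdps, 0.63 for Sc5d, 0.45 for Insig1, 0.49 for Stard4 and -0.09 for Soat1. Of the other pathway genes, 1 of 5 trafficking and 1 of 4 SREBP-processing genes tested were called: Lipa (56.0 against 14.4 CPM, log2 ratio 1.44) and Erlin2, an INSIG-associated degradation factor (46.4 against 16.5 CPM, 1.09), were called higher in arterial cells.

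The endothelium of suffixes 5 and 6 and the few endothelial cells of suffixes 1 to 4 had similar levels. Of 22 members tested, 0 were called in either direction, and of all 5512 genes 0.0181% were called higher and 0.163% lower. Here a call needed suffix values that did not overlap between the groups. The median member log2 ratio was 0.00. Among genes at 20 CPM or more, the largest of each role group were Acat2 (-0.37), Nsdhl (-0.31), Insig1 (-0.27), Stard4 (0.25), Abca1 (0.05) and Soat1 (0.29). Abcg1 was below that level, at 15.7 and 11.0 CPM in suffixes 5 and 6. In suffixes 1 to 4 it was at 6.08, 4.67, 4.71 and 14.5 CPM.

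Against mesenchyme, endothelium had higher levels of Stard4, which moves sterol between membranes, and of the efflux pump Abca1. Of 21 members tested, these 2 were called higher and 0 lower, a share near that of all 5963 genes (9.44% and 6.02%). The median log2 ratio of the members was 0.01 and that of the 14 synthesis enzymes tested was -0.05. By suffix, the enzyme median was 0.22, 0.11, -0.23 and -0.25 in suffixes 1 to 4, with no common direction. Stard4 was at 42.5, 42.0, 47.1 and 67.9 CPM in endothelial cells of suffixes 1 to 4, at 62.4 and 58.4 in suffixes 5 and 6, and at 15.6, 24.9, 17.4 and 22.7 CPM in mesenchyme of suffixes 1 to 4. The groups did not overlap, and the log2 ratio was 1.18. Abca1 was at 18.2, 28.0, 23.5 and 19.4 CPM in endothelial cells of suffixes 1 to 4, at 24.7 and 21.6 in suffixes 5 and 6, and at 1.20, 0, 0 and 2.43 in mesenchyme. It was high in all 6 endothelial suffix values, and the ratio of levels was 19.8 with a counting interval of 7.66 to 73.0. Abcg1 was below the limit for a call, at 12.7 CPM in endothelium. It had 0 UMIs in mesenchyme, which allows up to 0.865 CPM at 3 counts, and pooled endothelium was at 14.7 times that ceiling. In suffixes 1 to 4, where the mesenchyme lies, endothelial Abcg1 was at 6.08, 4.67, 4.71 and 14.5 CPM. These are 7 UMIs in all, at 8.41 times the ceiling. Sclerotome and neural crest also had 0 Abcg1 UMIs, and pooled endothelium was at 27.3 and 8.29 times their ceilings at 3 counts. With the endothelium of suffixes 1 to 4 alone, these multiples were 15.7 and 4.75. All these multiples leave out the counting error of the endothelial UMIs, so they are not lower limits.

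The largest ratios of the remaining role groups were -0.74 for Acat2 (96.4 against 168 CPM), 0.55 for Ebp, 0.22 for Insig1 and 0.63 for Soat1. Of 3 uptake genes tested, 1 was called in each direction: Scarb1, a receptor for high-density lipoprotein, was higher in endothelium (51.6 against 15.3 CPM, log2 ratio 1.28) and Lrp1, a large lipoprotein receptor, lower (0.629 against 28.8 CPM, -1.87). Of 8 fatty acid genes, 1 was called: Scd1, a fatty acid desaturase, was lower (4.34 against 23.4 CPM, -1.22). The pooled endothelial level is mostly suffixes 5 and 6 and the mesenchymal level mostly suffixes 1 to 4. For the called genes, the direction was shared by the 4 suffixes that hold both. It was not shared for Soat1, at 19.4 CPM in endothelium and 26.8 in mesenchyme of suffix 4.

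**Figure D4:**
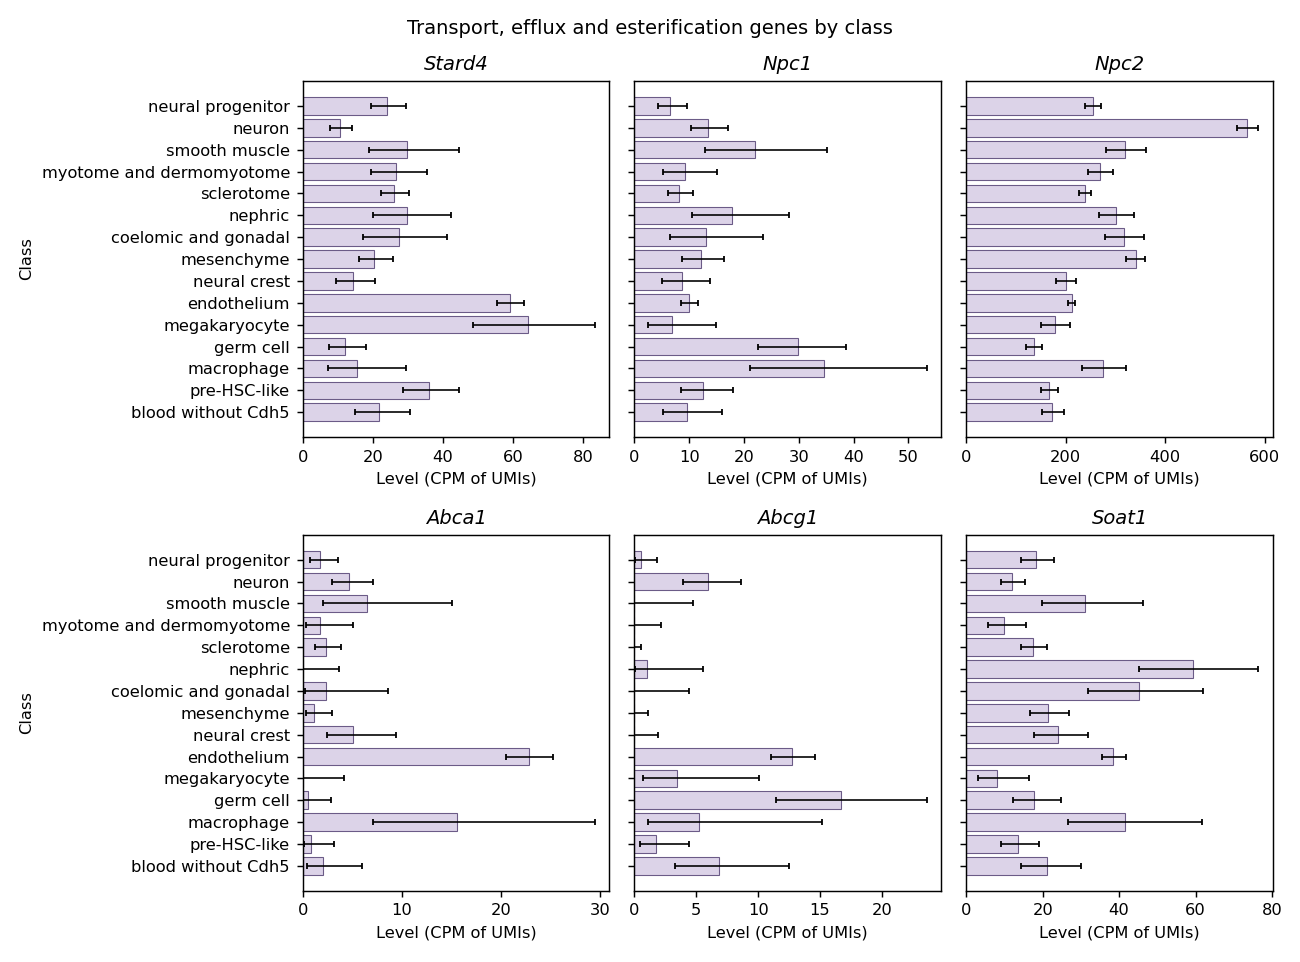
Levels (CPM of UMIs, horizontal axis) of 3 transport genes (Stard4, Npc1, Npc2), 2 efflux genes (Abca1, Abcg1) and Soat1 in 15 classes (vertical axis). Bars are all cells of a class and whiskers exact 95% Poisson intervals. Abca1 is highest in endothelium at 22.8 CPM, Abcg1 in germ cells at 16.7 CPM, and Npc2 in neurons at 565 CPM. The intervals of Abca1 in endothelium and macrophages overlap, as do those of Abcg1 in germ cells and endothelium.

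Macrophages, which clear dead cells and their cholesterol, had 53 cells in this table, in suffixes 1 to 4 except for 1 cell. Of 20 members tested against mesenchyme, 2 were called higher and 2 lower, against 14.1% and 16.7% of all 6316 genes, so members were called no more often than all genes. Ebp was at 35.4, 109 and 99.1 CPM in macrophages of suffixes 1, 3 and 4, and at 25.2, 33.0 and 27.6 in mesenchyme of these, a log2 ratio of 1.26. Npc1, the lysosomal membrane exporter, was at 41.3, 22.9 and 45.0 CPM and at 12.0, 19.1 and 13.8, a log2 ratio of 1.01. It rests on 20 UMIs in macrophages and its call held in 9 of 17 alternatives, and Npc1 overlaps Rmc1 on the opposite strand. The macrophage values were above the mesenchymal ones for both genes. Acat2 was at 53.1, 85.9 and 63.1 CPM in macrophages and at 158, 162 and 190 in mesenchyme, a log2 ratio of -1.41. Fdft1 was at 23.6, 17.2 and 18 CPM against 57.6, 73.0 and 79.5, a log2 ratio of -1.52. Neither overlapped. The largest ratios of the other role groups were -0.73 for Srebf2 and 0.71 for Soat1.

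Abca1 was at 15.5 CPM (7.10 to 29.5) in macrophages, below the limit for a test, and at 23.6, 11.5 and 0 in suffixes 1, 3 and 4. Of the uptake genes tested, 1 of 3 was called higher, as was 1 of 5 trafficking genes, and 2 of 8 fatty acid genes were called lower. Scarb1 (91.5 against 15.3 CPM, log2 ratio 2.00) and Lipa (55.2 against 10.7 CPM, 1.66) were higher, and Scd1 (1.73 against 23.4 CPM, -1.51) was lower.

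Germ cells, the migrating primordial germ cells of this stage, had some members below endothelium and others at or above it. They were among the 5 lowest classes for 11 of the 18 enzymes and for 53.2% of all 8848 genes, so low ranks were common in this class. They were set against endothelium, with which they share suffixes 5 and 6, in a contrast added after the levels had been seen. Of 22 members tested, 7 were called lower and 0 higher, against 22.3% and 9.08% of all 5915 genes. Acat2 was at 38.1 and 37.0 CPM in germ cells and 95.4 and 95 in endothelium of suffixes 5 and 6, a log2 ratio of -1.10. Mvk was at 15.2 and 11.6 CPM against 39.6 and 40.4, a log2 ratio of -1.08. Cyp51 was at 15.2 and 9.51 CPM against 53.4 and 58.7, a log2 ratio of -1.60. All 3 enzymes were low in both suffixes. Insig1 was at 7.62 and 4.23 CPM against 23.6 and 24.7 (log2 ratio -1.13), and Insig2 was at 6.35 and 6.34 CPM against 21.2 and 22.5 (-1.003). The Insig2 call sits at the limit and held in 8 of 19 alternatives. Stard4 was at 14.0 and 11.6 CPM against 62.4 and 58.4, a log2 ratio of -1.65. Abca1 had 1 UMI in germ cells, and the ratio of levels, endothelium to germ cells, was 43.7 with a counting interval of 7.79 to 1730.

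Other members stood at or above endothelium in the same germ cells. Fdft1 was at 96.5 and 95.1 CPM against 51.3 and 57.5 in suffixes 5 and 6, and Fdps at 142 and 134 against 122 and 114. Npc1 was at 24.1 and 35.9 CPM against 9.28 and 10.9. Abcg1 was at 12.7 and 20.1 CPM against 15.7 and 11.0, so the values of the 2 efflux pumps did not go together in this class. Soat1 had the largest ratio of its role group, -0.81. Of 7 fatty acid genes tested, 3 were called: Scd2 (19.3 against 148 CPM, log2 ratio -2.43), Fads1 (5.75 against 49.1 CPM, -1.91) and Acly (15.2 against 47.6 CPM, -1.20) were lower.

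Neural progenitors had higher levels of Hmgcs1 and Idi1 than mesenchyme, 2 of the 7 early enzymes. Of 23 members tested, 2 were called higher and 0 lower, against 4.3% and 4.38% of all 5774 genes. Hmgcs1 was at 129, 122, 129 and 132 CPM in neural progenitors of suffixes 1 to 4 and at 54.0, 33.6, 31.3 and 53.5 in mesenchyme, a log2 ratio of 1.32. Idi1 was at 127, 111, 107 and 117 CPM against 54.0, 53.5, 50.4 and 51.1, a log2 ratio of 1.02. The groups did not overlap for either gene. Mvk was at 52.9, 42.4, 51.3 and 51.1 CPM in neural progenitors and 43.2, 53.5, 60.8 and 46.2 in mesenchyme, which overlap. Pmvk had a log2 ratio of 0.21, with -0.30 in suffix 2. The median log2 ratio of the 17 enzymes tested was 0.64, and 0.07 over all genes. Msmo1 had the largest sterol-step ratio, 0.91, and Insig2 (0.24), Npc2 (-0.41) and Soat1 (-0.15) those of their groups. The 20 cell cycle genes had a median of 0.32, with 4772 CPM summed in neural progenitors and 3692 in mesenchyme.

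Between neurons and neural progenitors, no synthesis enzyme was called, and single enzymes had ratios in both directions, while cell cycle genes were lower in neurons. Of 22 members tested, 1 was called higher and 0 lower, a share below that of all 6060 genes (7.76% and 6.68%). The median log2 ratio of the 17 enzymes was -0.02 (-0.19, 0.11, 0.06 and -0.0005 in suffixes 1 to 4), and that of the 7 early enzymes in suffix 1 was -0.40, whereas 19 of 20 cell cycle genes were called lower with a median of -1.71. The member called was Npc2, the soluble lysosomal sterol carrier. It was at 537, 592, 575 and 559 CPM in neurons of suffixes 1 to 4 and at 260, 242, 256 and 251 in neural progenitors, a log2 ratio of 1.12. Every neuronal value was more than all progenitor values, and neurons also stood above the 340 CPM (321 to 360) of mesenchyme. Idi1 had a log2 ratio of -0.81 without a call, at 46.9, 75.9, 63.4 and 61.8 CPM in neurons against 127, 111, 107 and 117 in neural progenitors, which do not overlap. Hsd17b7 was at 30.3, 50.3, 39.6 and 51.4 CPM against 22.4, 23.3, 17.1 and 23.3, also without overlap, with a log2 ratio of 0.73. Insig2 had the largest ratio of the regulators, 0.27. Of 5 trafficking genes tested, 1 was called: Gramd1a, which carries sterol from the plasma membrane to the endoplasmic reticulum, was higher (75.5 against 16.3 CPM, 1.70).

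The somite class, sclerotome with myotome and dermomyotome, did not differ from mesenchyme by the rule. Of 22 members tested, 0 were called in either direction, against 1.85% and 1.71% of all 5562 genes. The median log2 ratio of the 16 enzymes tested was 0.35, positive in all 4 suffixes (0.27, 0.44, 0.37 and 0.34), and that of all genes 0.02. The largest ratios by role were 0.67 for Hmgcs1, 0.53 for Sqle, 0.38 for Insig2, -0.46 for Npc2 and -0.28 for Soat1. Within the somite, the summed enzymes of myotome and dermomyotome (1147, 1375, 1284 and 1498 CPM in suffixes 1 to 4) were above those of sclerotome (976, 1148, 1041 and 1039) in each suffix. Cell cycle sums went the other way, at 2344 and 3662 CPM.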

How the data were processed

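Droplet RNA libraries (10x v2, which reads 3′ ends of transcripts) of 3 sorted populations were deposited by the authors as 1 table of UMI counts, with no scaling. Cell Ranger (version not given in the sources) and the build mm10 are named per the submitters' processing notes.

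A barcode needed 1000 UMIs or more, 500 genes or more and no more than 10% of UMIs from mitochondrial genes, which 9383 of 9492 met. The 5% of each suffix with most simulated doublets (2 per barcode) among their neighbours were removed (468), and doublets may remain. Cells were gated by how many markers of 19 lists had a UMI (152 markers were found, and Ahsp of the erythroid list had no row). A class needed at least 3 (macrophage 4) and a share of the list at least 0.1 above the next. The blood, macrophage, megakaryocyte and myeloid lists were set only against lists neither blood nor endothelial, and took precedence over an endothelial call. Pre-HSC-like cells held on average 7.50 of 12 endothelial and 5.35 of 10 blood markers, so blood markers did not lead there. The markers were set with the design, the gate limits after the cells had been seen. Of the gated pre-HSC-like cells, 167 of 167 lay in 1 Leiden cluster (computed without the members), as did 86 of 99 arterial cells and 236 of 674 neurons. The members and lists were chosen with earlier results of these data known.

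Counts were summed per class and scaled to CPM. Ratios used log2 with 10 CPM added, which shrinks ratios of low genes, and the call rule given in the text was run over all genes. It was tested on simulated counts with known changes. Germ cell and pre-HSC-like against endothelium were contrasts added after the levels had been seen. Total counts per suffix ran from 1625564 to 16215454 UMIs. The text names each called member, the largest ratio in each role group without a call among genes at 20 CPM or more, and at most 4 called genes outside the list. Alternatives were other pseudocounts and minimum levels, stricter filters and gates, gates on barcodes thinned to 3000 UMIs, no doublet removal, clusters, equal weight per suffix, TMM scaling (written in Python) and leaving out each suffix. Gene places are from GENCODE M21. Tools were Python 3.11.15, numpy 2.4.6, scipy 1.17.1, pandas 2.3.3, scanpy 1.11.5, leidenalg 0.10.2, igraph 0.11.9 and matplotlib 3.10.9.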

Additional observations from a re-analysis of the deposited data

How the results depend on the processing

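No paired analysis was possible because each population had 1 sample and no result comes from a test. No log2 ratio of a called member changed sign in any alternative run, and 5 of 32 called ratios kept their call in all of them. Counts of members called were 10 (pre-HSC-like against arterial), 6 (pre-HSC-like against endothelium), 7 (germ cell against endothelium), 4 (macrophage against mesenchyme), 2 (endothelium and neural progenitor, each against mesenchyme), 1 (neuron against neural progenitor) and 0 elsewhere. With 1 CPM added they became 10 for pre-HSC-like against endothelium, 11 for germ cells, 7 for macrophages, 4 for neural progenitors, 2 for neurons and 1 for arterial against venous. With 30 CPM added they became 1 and 0 for the pre-HSC-like contrasts, 2 for germ cells, 2 for macrophages, 1 for neural progenitors and 0 for endothelium against mesenchyme. A minimum of 50 CPM left 3 and 2 for the pre-HSC-like contrasts, 3 for germ cells and 1 for endothelium against mesenchyme. Gates on thinned barcodes gave 7 for macrophages, 5 for neural progenitors, 0 for neurons, 1 for somite and 1 for arterial against venous. For neural progenitors, 1 more marker gave 4, no doublet removal 1 and TMM scaling 1, and equal weights gave 1 for endothelium against mesenchyme. Leaving out 1 suffix gave 1 to 3 for neural progenitors (1 without suffix 1) and 4 to 7 for macrophages (7 without suffix 3), 9 to 12 and 5 to 7 for the pre-HSC-like contrasts, 6 to 8 for germ cells, and the same count elsewhere. The share of all genes called was counted only with the main settings. These counts, and those for suffixes 5 and 6 alone below, therefore have no such share beside them. A change in a count cannot be told apart from a change in calls over all genes. The causes were not tested beyond what each alternative changes by its construction.

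Npc1 in macrophages kept its call in 9 of 17 alternatives, Insig2 in germ cells in 8 of 19 and Fdps against endothelium in 11 of 20. Restricting the pre-HSC-like contrasts to suffixes 5 and 6, an alternative chosen after seeing the data, gave 10 and 7. TMM moved the median of all genes by more than 0.1 for pre-HSC-like against arterial (from -0.08 to 0.02) and for endothelium against mesenchyme (from -0.05 to 0.10), with the same counts of calls. Clusters gave no value for arterial or macrophage contrasts. Suffixes are not tied to sorts, Poisson intervals omit variation between embryos, and classes of 53 to 167 cells limit low genes.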
